A study of Mus musculus with 12 samples.

Results

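DNA replication genes were examined in bulk RNA sequencing data from mouse airway organoids, and 40 genes of DNA replication and S phase were followed as a group. The group was defined by a fixed list of gene names, and all 40 names were found among the 55401 genes of the normalised count table. All 40 also passed the filter on low values (at least 10 normalised counts in at least 6 libraries), so no member dropped out.

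The organoids were grown from airway epithelial cells of adult C57BL/6J mice in basement membrane extract and had been transduced with a lentiviral vector that drives a Histone2A-mCherry fusion protein from a p63 promoter. In the ablation group a femtosecond laser killed 10 neighboring cells in each of the 45 organoids of a dish, and the control group received the same handling and change to unsupplemented FluoroBrite DMEM without ablation. Organoids of a dish were harvested together 4.5 h after ablation, so each library mixes the cells near the wound with the much larger number of cells that were not touched. There were 6 ablation and 6 control libraries, numbered 1, 3, 4, 5, 6 and 7 in each group, and the 2 dishes of a number shared passage and culture day and were taken as a pair. Passages are counted as P2 plus a number. Pair 1 was at passage 14 and culture day 14, pair 3 at passage 14 and day 20, pair 5 at passage 15 and day 15, pair 4 at passage 15 and day 14, pair 6 at passage 16 and day 18, and pair 7 at passage 16 and day 19. Pairs 1, 3 and 5 carry one run of library numbers (library set 1) and pairs 4, 6 and 7 the other (library set 2). The titles of controls 4, 6 and 7, all of library set 2, contain the word ablation although their treatment label says control. The same titles number these dishes with a C (4C, 6C and 7C), as those of controls 1, 3 and 5 do. They were grouped by the treatment label, and results are therefore also given for each library set. The labels do not say whether dishes came from separate animals, so p-values measure the spread between these dishes. The normalised counts summed to 27600452 to 28247162 in the ablation libraries (median 27700102) and to 27297950 to 28504390 in the control libraries (median 27950315).

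Before a cell can divide it has to copy its genome once. The origin recognition complex with Cdc6 and Cdt1 loads the Mcm2 to Mcm7 ring onto origins in G1 phase, and at the start of S phase Cdc45 and the GINS complex join the ring to form the active helicase. DNA polymerases then extend from primers laid down by primase, held to the template by the Pcna clamp, and Fen1 and Lig1 process and join the Okazaki fragments of the lagging strand. Most of these genes are transcribed in late G1 and S phase under E2F transcription factors, so their mRNA is a common readout of how many cells in a tissue are cycling. In the airway epithelium, basal cells are the main stem cells and supply most dividing cells. In bulk libraries, fewer cycling cells and less of the mRNA per cell cannot be told apart.

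The epithelial identity of the cultures was checked against markers. Among the basal markers, Krt5 averaged 276900 and Krt14 239800 normalised counts over the 12 libraries. Of the secretory markers Cyp2f2 was the most abundant with 49000, whereas Scgb1a1, the defining product of club cells, averaged 3.3. Among the ciliated markers Rsph1 was the most abundant with 128.2, Tppp3 averaged 24.5, the regulator Foxj1 averaged 9.9 and Tekt1 was at 0. The alveolar surfactant genes Sftpc and Sftpb and the endothelial receptor gene Kdr were at 0 as well. Of the other alveolar markers Ager averaged 15.7, whereas Hopx, which is not limited to alveolar cells, averaged 17290. The luminal keratins Krt19, Krt7, Krt8 and Krt18 averaged 86980, 51400, 25970 and 8694. The organoids thus had abundant RNA of basal and luminal keratins, while Tekt1, Sftpc, Sftpb and Kdr were at 0 and Scgb1a1, Foxj1, Tppp3 and Ager were low beside them.

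The promoters of the replication genes were compared with those of all genes. The members moved together across dishes, as described further down, and whether promoter letters have a part in this was not tested. RefSeq promoter windows (GRCm38.p6) of 300 bases, from 250 bases before to 50 after the start of transcription, covered 34 of the 40 members with 39 windows. The E2F letters searched were TTTCCCGC, TTTGGCGC, TTTCGCGC and TTTGCCGC, and the CCAAT box was searched as CCAAT, all on both strands. E2F letters were present in 14 of 39 member windows (35.9%), against 2.26% of 32851 windows of all genes. CCAAT was present in 23 of 39 member windows (59.0%), against 37.4%, and both occurred in 10 (25.6%), against 0.962%. The 14 genes with E2F letters included Mcm3, Mcm5, Mcm6, Mcm7, Cdc6, Cdt1, Orc1, Lig1 and Uhrf1. Of these, Lig1, Mcm7 and Uhrf1 had more than 1 window, not all of them with E2F letters. The other 20 of the 34 genes had none. They were Ccne1, Cdc45, Chaf1a, Chaf1b, E2f1, Fen1, Mcm10, Mcm2, Orc6, Pcna, Pola2, Prim1, Rfc4, Rfc5, Rpa2, Rrm1, Rrm2, Slbp, Tk1 and Tyms. The 250 bases upstream of a transcription start of Mcm5, Mcm6 and Uhrf1 are printed 5′ to 3′ on the strand of the gene. They are examples in which both kinds of letters lie close together. Capitals mark E2F and CCAAT letters on either strand, and adjoining capitals are E2F matches that overlap. The windows are chr8:75109259-75109508 (plus strand) for Mcm5, chr1:128359706-128359955 (minus strand) for Mcm6 and chr17:56304063-56304312 (plus strand) for Uhrf1. The printed window of Uhrf1 lies inside the annotated gene, which begins at 56303321. Another window at that start, chr17:56303087-56303336, has CCAAT but no E2F letters.
Mcm5: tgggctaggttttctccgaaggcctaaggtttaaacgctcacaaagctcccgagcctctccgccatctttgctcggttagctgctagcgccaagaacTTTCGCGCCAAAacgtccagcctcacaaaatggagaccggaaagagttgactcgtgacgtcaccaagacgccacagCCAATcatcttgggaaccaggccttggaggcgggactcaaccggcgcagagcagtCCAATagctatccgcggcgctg
Mcm6: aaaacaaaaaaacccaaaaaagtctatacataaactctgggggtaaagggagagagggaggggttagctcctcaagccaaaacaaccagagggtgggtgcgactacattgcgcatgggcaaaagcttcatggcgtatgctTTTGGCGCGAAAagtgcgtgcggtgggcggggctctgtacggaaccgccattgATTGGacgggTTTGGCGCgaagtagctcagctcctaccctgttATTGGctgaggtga
Uhrf1: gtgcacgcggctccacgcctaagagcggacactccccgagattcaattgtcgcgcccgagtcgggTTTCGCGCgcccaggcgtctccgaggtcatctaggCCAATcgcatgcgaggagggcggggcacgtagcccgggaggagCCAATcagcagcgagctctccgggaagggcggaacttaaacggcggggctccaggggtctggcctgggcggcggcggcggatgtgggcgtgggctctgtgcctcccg
In Mcm6 the E2F matches began 110, 106 and 47 bases before the start. These matches are a description of the letters in the window and show no binding.

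Replication genes were well expressed in every dish. Their summed level ranged from 57157 normalised counts in ablation 1 to 93609 in ablation 3, which was 0.207% to 0.331% of a library. Rrm1, the large subunit of ribonucleotide reductase, which makes deoxynucleotides, had the highest mean over the 12 libraries with 6503 normalised counts, followed by Pcna with 6139. Divided by exon length, Pcna had the highest level (2558 normalised counts per kb) and Orc1, the largest subunit of the origin recognition complex, the lowest (54.9 per kb). The Mcm2 to Mcm7 genes, whose products form a ring of 1 copy each, lay between 431.5 per kb for Mcm2 and 1049 per kb for Mcm7. Across the 12 libraries the members moved together: the correlation of log2 values between 2 members had a median of r = 0.796 and was above 0 in 780 of 780 combinations, with a range of 0.00316 to 0.987. These correlations are descriptive, as libraries of a pair share their culture. The cyclin E gene Ccne1 followed the other members least (r = 0.484 with their mean) and Mcm7 was among the closest (r = 0.972).

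**Figure D1:**
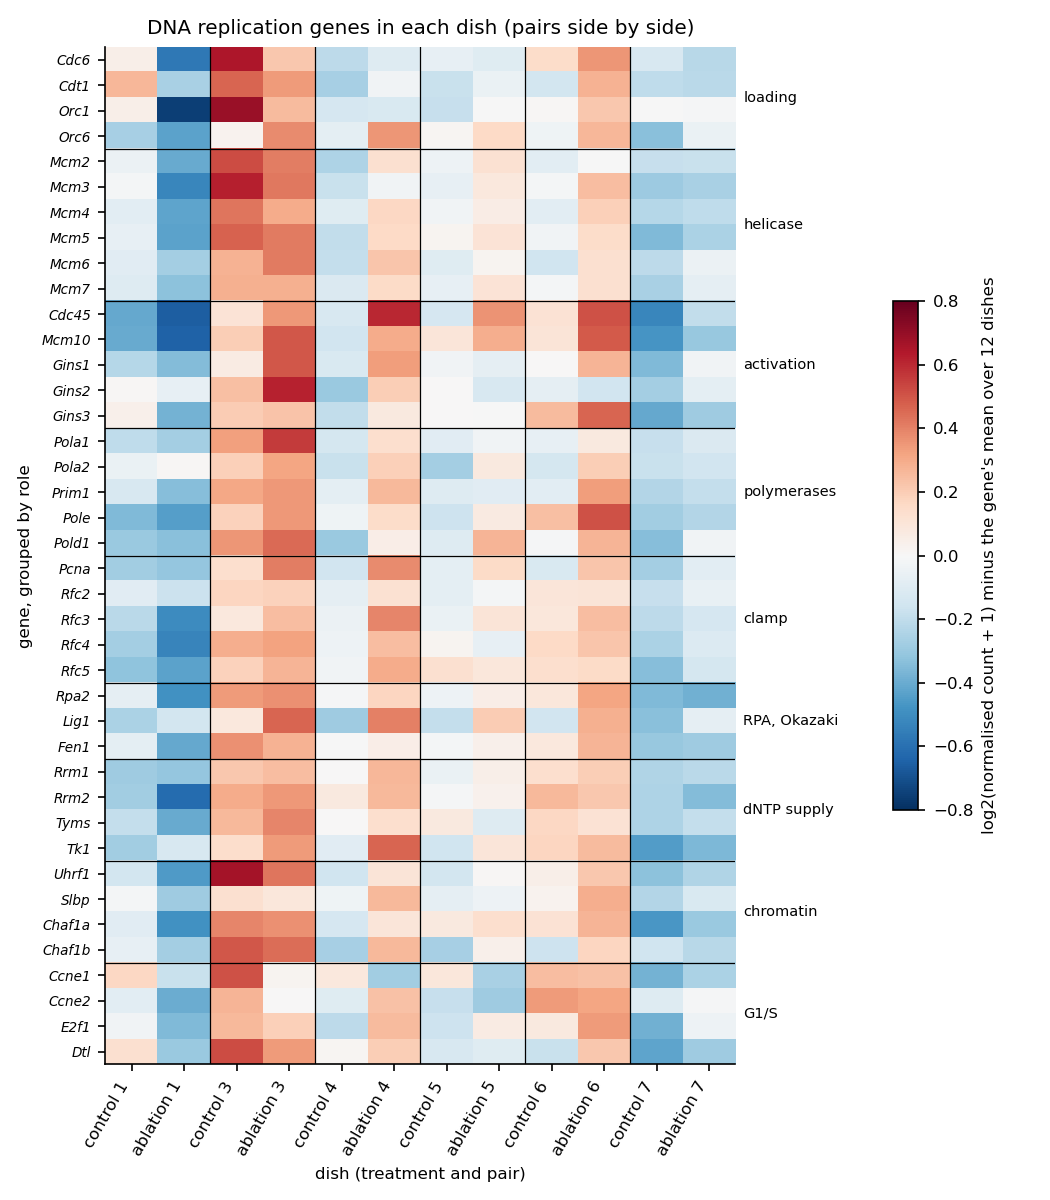
Heat map of the 40 replication genes (rows, grouped by role) in the 12 dishes (columns, control and ablation of a pair side by side). Colour gives log2(normalised count + 1) minus the mean of the gene over 12 dishes. Both dishes of pair 3 lie above the mean for 40 of 40 genes, and both dishes of pair 7 lie below it for all 40.

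Replication gene expression differed between the cultures. Dishes of pair 3 had the highest levels and dishes of pairs 1 and 7 the lowest. The 2 dishes of a pair were close in pair 3, where the members summed to 90404 in control 3 and 93609 in ablation 3. They were further apart in pair 4, with 67635 in control 4 and 85143 in ablation 4. With ablation accounted for, 34 of the 40 members differed among the 6 pairs at an adjusted p under 0.05 (limma F test with Benjamini-Hochberg adjustment), where 29.6% of all genes tested did. The members without a call were Cdt1, Orc1, Pola2, Slbp, Ccne1 and E2f1. Between the highest and the lowest pair mean the members spanned a median of 0.62 on the log2 scale, against 0.38 for all genes tested. Pair 3, which had the highest culture day (day 20), had the highest mean for 34 members, pair 6 for 5 and pair 4 for 1. The lowest mean was in pair 1 for 24 members and in pair 7 for 16. Without pair 3 the count fell to 16 of 40 members, against 16.1% of all genes. With a plain empirical Bayes step it was 4 of 40 (Rrm1, Rrm2, Pola1 and Pole), or 10%, against 6.26% of all genes.

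Among the genes with the widest spread between cultures were Mcm10, which acts in helicase activation, and Uhrf1, which recognises hemimethylated DNA behind the fork. Mcm10 was 1.83 times higher in pair 3 than in pair 1 (adjusted p = 0.00209 among pairs). Uhrf1 was 1.8 times higher in pair 3 than in pair 1 (adjusted p = 0.00429). Rfc2, a clamp loader subunit, spanned only 1.24 times between the same pairs (adjusted p = 0.0342). In control dishes alone, where no cell was ablated, control 3 was the highest dish for 34 members and control 7 the lowest for 25. Genes of G2 and M phase also differed among pairs, with 20 of 21 listed genes past the threshold (29.6% of all genes) and a median span of 0.72 (0.38 for all genes). Their summed level was lowest in pair 1 (77060 in ablation 1 and 74860 in control 1) and pair 7 (93570 and 83670), the pairs in which replication genes were lowest too, and highest in control 6 (129900) and ablation 4 (126200). The patterns of both lists were not tested against each other. Mki67, a widely used marker of cycling cells, was highest in pair 6, with 21540 normalised counts in ablation 6 and 21630 in control 6.

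**Figure D2:**
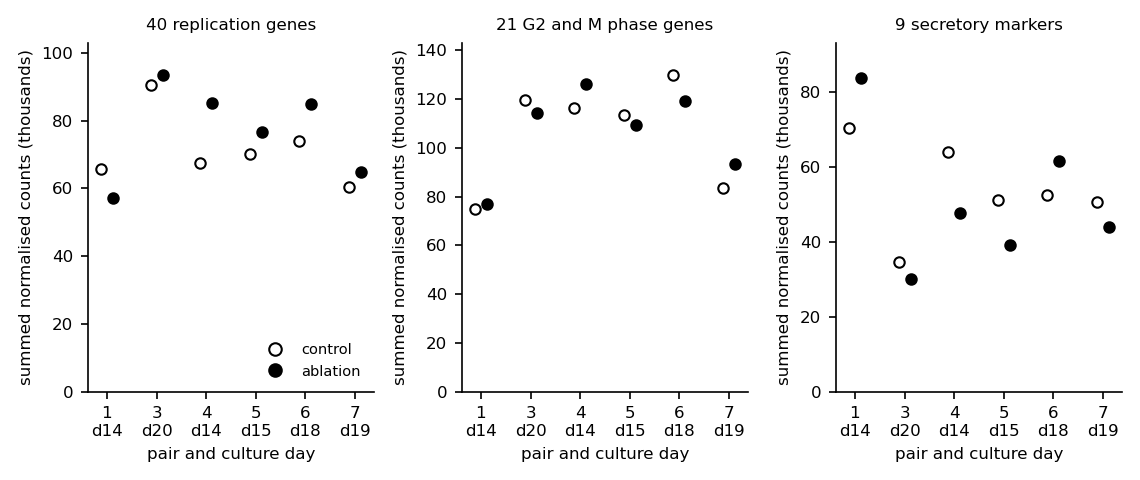
Summed normalised counts (vertical axis, in units of 1000) of the 40 replication genes, 21 G2 and M phase genes and 9 secretory markers by pair and culture day (horizontal axis), with open points for control and filled points for ablation dishes. The replication genes were highest in pair 3 (90404 in control 3 and 93609 in ablation 3), where the secretory markers, mostly Cyp2f2, were lowest (34620 and 30190). Without Cyp2f2 the secretory markers were lowest in pair 7 (2170 in control 7 and 2618 in ablation 7).

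Markers of other cells varied between the same cultures. The summed secretory markers, mostly Cyp2f2, were highest in pair 1 (83730 in ablation 1 and 70550 in control 1) and lowest in pair 3. The low of pair 3 rested on Cyp2f2. Without it the other secretory markers summed to 3995 in ablation 3 and 3334 in control 3. They were then lowest in pair 7, with 2618 in ablation 7 and 2170 in control 7. The 16 p53 target genes summed to 109600 in ablation 1 and 104100 in control 1, the highest of the 12 dishes. Most of this sum was Perp, a desmosome gene (71340 and 63990), and without it the other targets summed to 38230 and 40120, within the range of 36990 to 42690 over the 12 dishes. Summed basal markers were highest in ablation 1 with 707700, but control 1 (652300) lay below both dishes of pair 3 (689600 in ablation 3 and 674400 in control 3). Without Krt5 the other basal markers were highest in ablation 5 (378700), with 367600 in ablation 1. Whether these levels have a part in the spread of the replication genes was not tested. Mitochondrial genes made up 1.29% to 1.79% of the counts of a library.

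Neither culture day nor passage alone gave a called trend in the replication genes. Over the 6 pair means, the slope on culture day was above 0 for 40 of 40 members, against 51.1% of all genes tested, with a median of 0.036 on the log2 scale per day. No member had an adjusted p under 0.05 (limma, and 0% of all genes tested did), and only Orc1 and Cdc6, another origin loading factor, had an unadjusted p under 0.05 (2 of 40, against 5.39% of all genes). The slope of Orc1 was 0.089 per day (SE 0.029, adjusted p = 0.912). Pair 7 was late in culture but low, and with pair 7 left out 25 of 40 members had an unadjusted p under 0.05, against 7.27% of all genes, and 0 passed the adjustment. Without pair 3 the unadjusted count was 0 of 40, without pair 1, 4, 5 or 6 it was 1 each, and in control dishes only it was 0. With passage as a second term it was 10 of 40, against 10.1% of all genes. With no filter on low values it was 4 of 40, against 4.97%. For passage, the slope was above 0 for 10 of 40 members, against 49.2% of all genes, and 0 members passed (0.0363% of all genes tested did). Only the GINS subunit gene Gins2 had an unadjusted p under 0.05, where 12.2% of all genes had, but without pair 1 there were 13 of 40 members, against 16.7% of all genes. Passage also ran with library set, as passage 14 occurred only in set 1 and passage 16 only in set 2.

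Ablation was compared with control to ask whether replication genes respond within 4.5 h of the wound. Differences were small and mostly within the spread between dishes. Lig1, the ligase that seals Okazaki fragments, was 1.3 times higher after ablation and higher in 6 of 6 pairs, and Pola2 and Tk1 were also higher in 6 of 6 pairs, as were 5.17% of all genes tested. No member was lower in all 6 pairs, as 4.63% of all genes were. In the model with library set as second factor, 0 of 40 members had an adjusted p under 0.05 (0% of all 13792 genes tested), and 2 of 40, Lig1 and Pola2, had an unadjusted p under 0.05, where 7.85% of all genes had. With 1 pair left out of this model, the unadjusted count was 8 of 40 without pair 1, against 10.1% of all genes. It was 4 without pair 3 or 7, 2 without pair 6 and 1 without pair 4 or 5, against 5.2% to 6.99% of all genes. In the paired model 1 member passed, Lig1, where 1.09% of all genes did (150 genes), 0.674% as higher and 0.413% as lower. In that model 13 of 40 members had an unadjusted p under 0.05, 12 of them higher and 1, Ccne1, lower, against 17.6% of all genes, 8.78% higher and 8.86% lower.

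The median log2 difference over the 40 members was 0.071, against -0.0036 over all genes tested, and 32 of 40 members were above 0, against 48.5% of all genes. The median was 0.13 without pair 1 and 0.028 without pair 4, and the 13 members with an unadjusted p under 0.05 in the paired model became 21 and 8 (17.7% and 13.6% of all genes). The median was -0.055 in library set 1 alone and 0.20 in library set 2 alone. It was -0.047 in edgeR on the 9 libraries whose whole read counts could be recovered, a fit without the pair that leaves out pair 4 and ablation 3 but keeps control 3, the control dish with the highest summed level. limma on the same 9 libraries gave -0.040. The 8 members below 0 in the 12 libraries were Mcm3, Rrm2, Cdc6, Orc1, Fen1, Tyms, Ccne1 and Ccne2. No member had groups that did not overlap, while 0.247% of all genes were higher and 0.21% lower in every ablation than in every control dish.

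**Figure D3:**
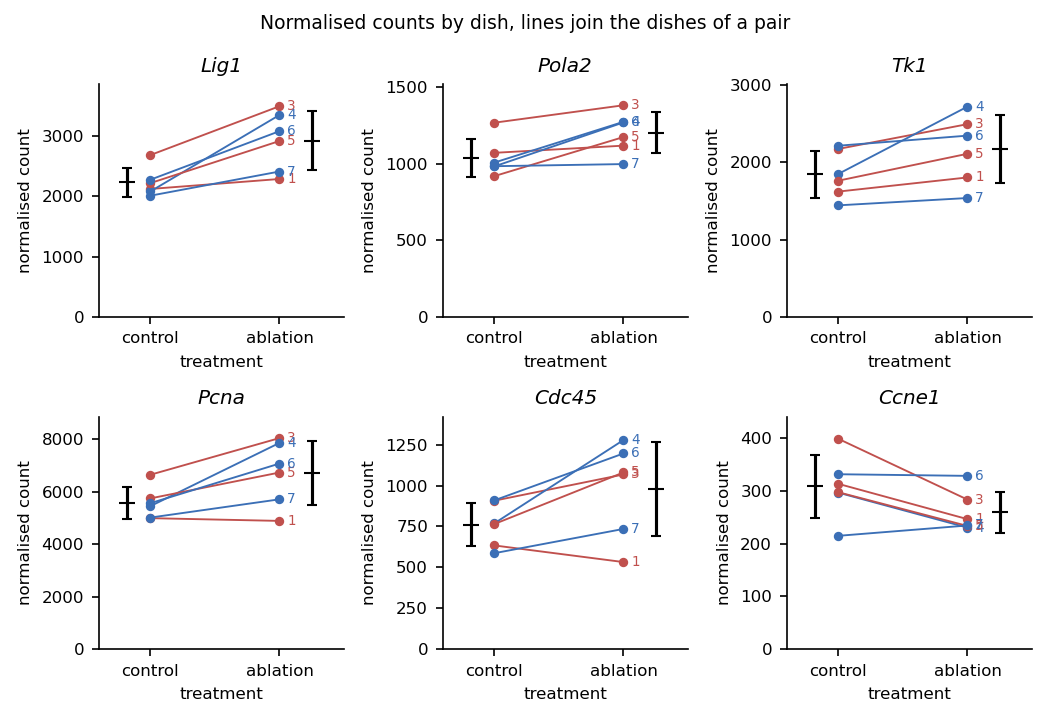
Normalised counts (vertical axis, from 0) of 6 replication genes by treatment, with a line joining the control and ablation dish of each numbered pair, red for library set 1 and blue for set 2, and bars for the mean ± SD of 6 dishes. Lines rise in all 6 pairs for Lig1, Pola2 and Tk1, in 5 pairs for Pcna and Cdc45, and in 1 pair for Ccne1.

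Lig1 (ENSMUSG00000056394.17, GRCm38.p6 chromosome 7 from 13277283 to 13311433, plus strand) had a lowest, median and highest value of 2291, 3004 and 3500 normalised counts after ablation, and of 2013, 2174 and 2688 in the control. The highest control dish, control 3, lay above ablation 1 and ablation 7, so the groups overlapped although each ablation dish exceeded its own control. The means were 2928 ± 490.4 and 2235 ± 241.6 (SD, n = 6 dishes), and the log2 difference was 0.38 (SE 0.11). Its adjusted p was 0.486 with the library set and 0.0137 with the pair as a block (limma). Within pairs the log2 difference ran from 0.11 in pair 1 to 0.69 in pair 4, and the paired call was lost without pair 4 (0 members and 8 genes called) and with a plain empirical Bayes step (0 genes called). The log2 difference itself was 0.32 at its lowest with a pair left out. Exons of Lig1 and Zswim9 overlap over 247 bases on opposite strands, and Zswim9 averaged 188.6 normalised counts.

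Pola2 (ENSMUSG00000024833.15, chromosome 19 from 5940542 to 5964202, minus strand), the accessory subunit of DNA polymerase alpha, had 997.7, 1222 and 1382 normalised counts (lowest, median, highest) after ablation and 919, 995.6 and 1268 in the control. All pairs were higher after ablation, but by only 0.020 on the log2 scale in pair 7. The log2 difference was 0.21 (SE 0.087), with an adjusted p of 0.619 with the library set and 0.0863 with the pair (limma).

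Tk1 (ENSMUSG00000025574.13, chromosome 11 from 117815526 to 117826092, minus strand), which salvages thymidine, had 1539, 2229 and 2723 normalised counts after ablation and 1444, 1807 and 2216 in the control. The groups overlapped broadly, and the difference within pairs ran from 0.082 in pair 6 to 0.56 in pair 4. The log2 difference was 0.22 (SE 0.14), with an adjusted p of 0.734 with the library set and 0.0756 with the pair (limma).

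Pcna (ENSMUSG00000027342.14, chromosome 2 from 132249162 to 132253314, minus strand), the sliding clamp, had 4884, 6898 and 8039 normalised counts after ablation and 4989, 5502 and 6642 in the control. The lowest of all 12 dishes was ablation 1, and pair 1 was the only pair in which Pcna was not higher after ablation (log2 difference -0.031). Over all pairs the log2 difference was 0.26 (SE 0.12), with an adjusted p of 0.633 with the library set and 0.0585 with the pair (limma). The pseudogene Pcna-ps2 averaged 48.2 normalised counts, so reads shared with Pcna could be split between them.

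Cdc45 (ENSMUSG00000000028.15, chromosome 16 from 18780447 to 18811987, minus strand), a subunit of the active helicase, had 532.3, 1074 and 1279 normalised counts after ablation and 586.5, 766.9 and 909.7 in the control. Ablation 1 was again the lowest dish, and 4 ablation dishes lay above the highest control. The log2 difference was 0.32 (SE 0.20), from -0.25 in pair 1 to 0.73 in pair 4, with an adjusted p of 0.718 with the library set and 0.159 with the pair (limma). It shares 209 exon bases with Ufd1 on the opposite strand, which averaged 1650.5 normalised counts. The libraries were stranded, but the strand setting of the counting is not given in the sources used here, so reads of such partners may be mixed.

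Rrm1 (ENSMUSG00000030978.10, chromosome 7 from 102441695 to 102469771, plus strand), the most abundant member, had 5203, 7000 and 7746 normalised counts after ablation and 5277, 6330 and 7476 in the control. The groups overlapped almost fully. The log2 difference was 0.076 (SE 0.12), with an adjusted p of 0.895 with the library set and 0.358 with the pair (limma).

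The other members are described by role, as log2 differences between ablation and control. Among the origin recognition and helicase loading genes, Orc6 stood at 0.22 and Cdt1 at 0.018, whereas Cdc6 and Orc1 stood at -0.14 each. Orc6 was higher in 5 of 6 pairs and shares 171 exon bases with the abundant Vps35 on the opposite strand. The 6 Mcm helicase core genes lay close to 0, from -0.020 for Mcm3 to 0.16 for Mcm6, with a median of 0.041. Genes of helicase activation had the highest median of the 9 roles, 0.21, with Cdc45, Gins1 (0.22), Mcm10 (0.21), Gins2 (0.13) and Gins3 (0.034) all above 0. Of these 5, Cdc45, Gins1 and Mcm10 had an unadjusted p under 0.05 in the paired model, against the same 8.78% of all genes higher.

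All 5 primase and polymerase genes were above 0, with a median of 0.13, and 4 of them, Pold1 (0.23), Pola2, Pole (0.13) and Pola1 (0.12), had an unadjusted p under 0.05 in the paired model, where 8.78% of all genes did as higher. Pold1 and Pole encode the catalytic subunits of the polymerases delta and epsilon. The clamp loader genes Rfc2, Rfc3, Rfc4 and Rfc5 lay between 0.031 and 0.12. Rpa2, which coats single-stranded DNA, stood at 0.012 and the flap endonuclease gene Fen1 at -0.017, both below the 0.38 of Lig1, the third gene of this role. For deoxynucleotide supply, Rrm2 stood at -0.034 and Tyms, which makes thymidylate, at -0.021. The chromatin assembly genes Chaf1a (0.031) and Chaf1b (0.14), the histone mRNA binding factor gene Slbp (0.066) and Uhrf1 (0.022) gave a median of 0.049. In the G1/S regulators, Ccne1 stood at -0.24 (SE 0.13) and was lower in 5 of 6 pairs (adjusted p = 0.697 with the library set and 0.184 with the pair, limma). Ccne2 stood at -0.046, Dtl, which directs Cdt1 to destruction, at 0.023 and E2f1 at 0.15.

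**Figure D4:**
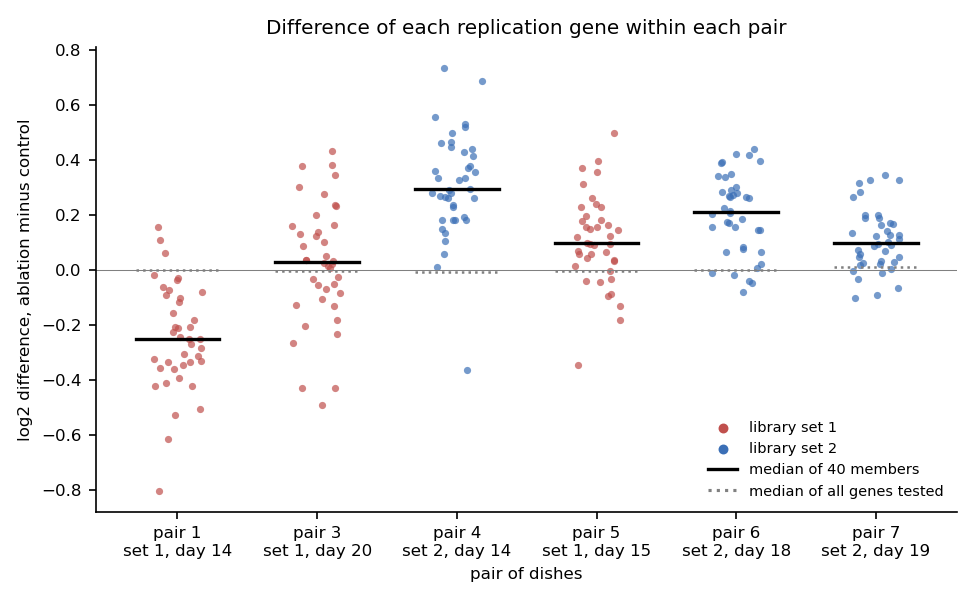
Log2 difference between the ablation and the control dish (vertical axis) of each of 40 replication genes in each of 6 pairs (horizontal axis, with library set and culture day), with solid lines for the median of the members and dotted lines for the median of all genes tested. The members lie mostly below 0 in pair 1 (37 of 40) and mostly above 0 in pair 4 (39 of 40).

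The pairs differed in how the replication genes stood after ablation. In pair 1, 37 of 40 members were lower after ablation and 3 higher, with a median log2 difference of -0.25. The lowest value was that of Orc1 (-0.80), with 193 normalised counts in control 1 and 110.2 in ablation 1. In pair 4, 39 of 40 were higher, with a median of 0.29, and Ccne1 was the exception. Pair 6 had 35 higher (median 0.21), pair 5 had 31 (median 0.095) and pair 7 had 34 (median 0.096), while pair 3 had 24 higher and 16 lower (median 0.028). The median of all genes tested stayed within 0.0105 of 0 in each pair. Helicase loading genes had the lowest role median in pair 1 (-0.57), and helicase activation genes the highest in pair 4 (0.46). These are single dishes against single dishes, so they carry no test within a pair.

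The response was compared between the library sets, since the titles of 3 controls and their treatment labels differ in set 2 only. In set 1, 16 members were above 0 and 24 below, with 3 higher (Lig1, Pola2 and Tk1) and 3 lower (Cdc6, Ccne1 and Ccne2) in all 3 pairs, against 17.9% and 19.6% of all genes. No member passed the adjustment there (0.116% of all genes tested did), and 7 of 40 had an unadjusted p under 0.05, against 13.9% of all genes. In set 2, 39 members were above 0 (49.8% of all genes), 30 were higher in all 3 pairs (17.5% of all genes) and none lower in all 3 (17.8%), 27 had an unadjusted p under 0.05 (13% of all genes) and 4 passed the adjustment, Pcna, Cdc45, Orc6 and Lig1, where 0.79% of all genes did. In set 2 the log2 difference was 0.35 (SE 0.068) for Pcna, 0.48 (SE 0.087) for Cdc45, 0.34 (SE 0.064) for Orc6 and 0.46 (SE 0.078) for Lig1. The set 2 directions depend on the treatment label of controls 4, 6 and 7, with which the C in their titles goes. The basal factor gene Trp63, which is no member, stood at 0.33 in set 1 and 0.45 in set 2, higher in 6 of 6 pairs (5.17% of all genes). It is named because it passed the paired model over all 6 pairs under these same labels, so it is no separate check of them. The median of the 9 basal markers was 0.031 in set 1 and -0.13 in set 2.

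The effect in set 2 was above that in set 1 for 40 of 40 members, where 51.5% of all genes tested were. The test of the difference itself (interaction of condition and library set, with pair) called 0 members (0.00725% of all genes), with 16 of 40 at an unadjusted p under 0.05, against 7.88% of all genes. This count rested on pair 1 and pair 4: it was 2 of 40 without pair 1 (5.79% of all genes) and 6 of 40 without pair 4 (9.75% of all genes). The lowest adjusted p was 0.439, for Dtl, which stood at -0.19 in set 1 and 0.24 in set 2. Without pair 1 the paired model called 6 members, Pcna, Cdc45, Mcm10, Orc6, Pold1 and Lig1, where 1.28% of all genes passed, and without pair 4 it called 0 members, where 0.058% did. The choice to leave out pairs from this model came after seeing the data.

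**Figure D5:**
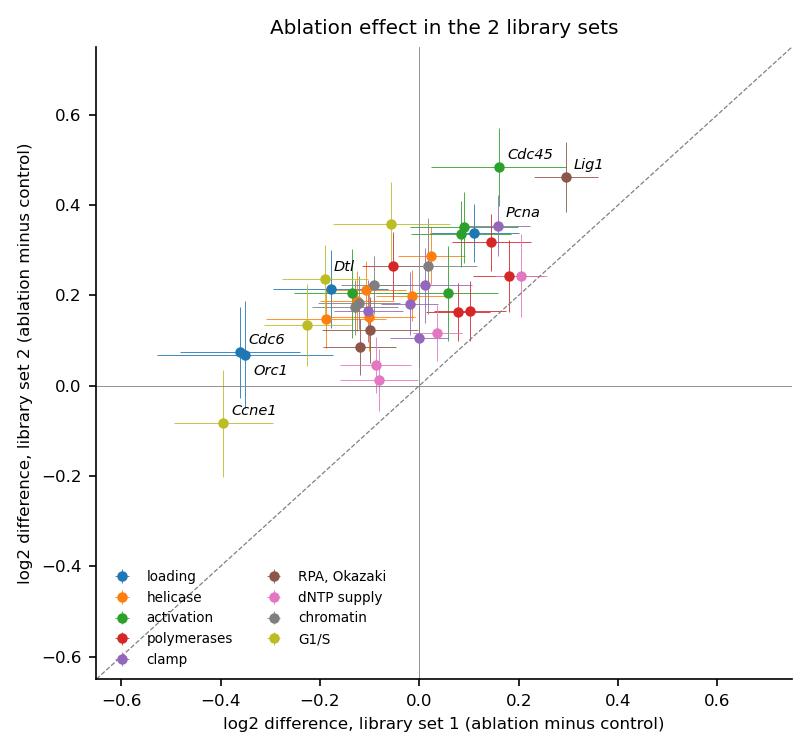
Log2 difference of each replication gene in library set 2 (vertical axis) against that in library set 1 (horizontal axis), with SE bars from the paired model and colours for the roles. All 40 points lie above the dashed line of equal effects, with 24 of them below 0 in set 1 and 1, Ccne1, below 0 in set 2.

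Genes outside the group were described from fixed lists. Of all genes tested, 48.5% were above 0, 1.09% passed in the paired model and 0% passed with the library set. Of 36 other replication genes, 0 passed in either model, 27 were above 0 and the median was 0.047. The uracil glycosylase gene Ung stood at -0.38 (adjusted p = 0.775 with the library set and 0.130 with the pair, limma), with 162.9 ± 69.4 normalised counts after ablation and 221.5 ± 128.2 in the control (SD, n = 6). Pold4, a small subunit of polymerase delta that was singled out after its values were seen, was lower in 6 of 6 pairs, as were 4.63% of all genes tested. Its log2 difference was -0.23 (adjusted p = 0.604 with the library set and 0.218 with the pair, limma). Of 27 G1/S control genes, 0 passed, with 14 above 0; the largest differences were those of the inhibitor genes Cdkn2a (0.19) and Cdkn1c (-0.18). Of 9 S phase checkpoint genes, 0 passed and 8 were above 0, with the p53-inducible ribonucleotide reductase subunit gene Rrm2b at 0.16 and the checkpoint kinase gene Chek1 at 0.14. Of 21 G2 and M phase genes, 0 passed, 11 were above 0 and the median was 0.020, with Bub1 at 0.12 and Cdc20 at -0.12. Of 16 p53 targets, 0 passed and 13 were below 0, with Sesn1 at -0.21 and Zmat3 at -0.16.

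Among the marker lists, 1 of 9 basal markers, Trp63, passed in the paired model (log2 difference 0.39, adjusted p = 0.00825, and 0.187 with the library set, limma). So did 1 of 5 secretory markers tested, Aldh1a1 (0.42, adjusted p = 0.00184, and 0.530 with the library set, limma). Both were higher in 6 of 6 pairs, as were 5.17% of all genes tested, and 1.09% of all genes passed in the paired model. The other genes of these lists went both ways. Of the basal markers 4 were above 0 and 5 below, with a median of -0.047. Itga6 was higher and Itgb4 lower in 6 of 6 pairs (5.17% and 4.63% of all genes). Of the secretory markers tested 1 was above 0 and 4 below, with a median of -0.19. No gene of the ciliated, luminal keratin, alveolar, fibroblast and immune lists passed in either model. The largest log2 differences in these lists were those of Tppp3 (-0.16) and Rsph1 (-0.11) for ciliated cells, Krt8 (0.11) and Krt7 (-0.050) for luminal keratins, Ager (-0.12) and Hopx (-0.077) for alveolar cells, Pdgfra (0.035), the only fibroblast gene tested, and Ptprc (-0.52) and Cd68 (-0.054) for immune cells. The endothelial list had no gene tested. Fibroblast markers summed to between 17.8 and 48.2 and immune markers to between 102.3 and 172.9 normalised counts a dish.

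The 10 genes outside the group that followed the mean of the members most closely over the 12 libraries were Mre11a, Cdca4, Prpf4, Topbp1, Fignl1, Topors, Hspa14, Spc24, Wdhd1 and Ttf2, with r from 0.957 to 0.941. After the pair means were removed, r was 0.955 for Mre11a and 0.956 for Cdca4, but 0.716 for Ttf2.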

How the data were processed

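Poly(A) RNA of 12 dishes (6 ablation, 6 control) was sequenced from stranded libraries in paired-end reads. Per the labels and methods, the authors processed reads with nf-core/rnaseq 1.4.2 on GENCODE GRCm38.p6 and divided the counts of each library by its DESeq2 size factor (Galaxy tool 2.11.40.6). These deposited normalised counts, a signal on a linear scale, were used here. The table's log2 fold changes, score columns (standard errors and Wald statistics) and p-values, which the authors computed with DESeq2, were not used. Values were whole multiples of 1 step in all libraries (100% within 0.01), and whole read counts (23631212 to 29775699) were accepted as recovered for 9 libraries. The other 3 (ablation 3, ablation 4 and control 4) had the steps nearest to 1 (0.9991, 0.9896 and 1.007). The rule used to accept recovered reads did not pass them, so they were left out of edgeR, although their values were whole multiples of a step as well.

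Values were analysed in R 4.3.3 with limma 3.58.1 (trend, robust eBayes) on log2(normalised count + 1), a scale that understates changes of low genes, over 13792 of 55401 genes with at least 10 normalised counts in at least 6 libraries, with Benjamini-Hochberg adjustment over all genes tested and a threshold of 0.05. edgeR 4.0.16 was run on the recovered reads as an alternative. The authors' second factor, a batch, is not defined in the sources used here and was taken as the library set. Same-numbered dishes correlated in their deviations from the group means across genes (r = 0.618, 0.493, 0.205, 0.317, 0.381 and 0.332 for pairs 1, 3, 4, 5, 6 and 7), with mean r from -0.135 to -0.0248 for other numbers, so the pair was also fitted as a block. The pairing comes from passage and culture day in the titles and from this check. Differences among pairs were tested with an F test, and culture day and passage as slopes over 6 pair means. The models were tested on simulated data with planted changes much larger than the differences seen in the members. That test therefore does not show how well changes as small as those of the members are found.

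The members and lists were chosen with earlier results of these data known. The lowest, median and highest dish of each group are given for members called in either model, members changed in 1 direction in all 6 pairs, Pcna, Cdc45 and the most abundant member. From each other list, every called gene or else the 2 genes with the largest absolute log2 difference are named, and the 10 other genes most correlated with the members. Of the genes that this rule names, 1 is not reported here. Alternatives were another pseudocount, no filter, quantile normalisation, plain eBayes, the block, each library set, each pair left out and edgeR. Promoter windows came from RefSeq GRCm38.p6.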

Additional observations from a re-analysis of the deposited data

Results flagged for a closer look

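Control 3 stood far above the other 5 control dishes in 10 members, with a gap to the nearest dish over the group's range above Dixon's critical value for 6 samples. The normalised counts of control 3, with the nearest control dish, were 4234 against 2874 for Mcm2, 3730 against 2395 for Mcm3, 3953 against 2881 for Mcm4, 4770 against 3691 for Mcm6, 524 against 369.4 for Cdc6, 300.9 against 193 for Orc1, 2619 against 1995 for Pola1, 2828 against 2162 for Prim1, 3540 against 2302 for Uhrf1 and 966.1 against 654.3 for Chaf1b. Of 80 groups of dishes examined (40 members in 2 treatments), these were the 10 marked, all for control 3, where chance marks about 1 in 20 groups. The members are correlated across dishes, so these are not 10 separate events. The 6 dishes of the ablation group gave no such value. Without pair 3 the members called among pairs were 16 in place of 34, and the share of all genes called was 16.1% in place of 29.6%.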

How the results depend on the processing

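The pairing check held, so the fit with the pair as a replicate block stands beside the fit with library set. The block moved the count of members called for ablation from 0 to 1 and of genes from 0 to 150, and it changed no other member's call. Leaving out 1 pair from the blocked fit gave 0 to 6 members and, without pairs 1, 3, 4, 5, 6 and 7 in turn, 176, 90, 8, 77, 106 and 140 genes. With the block, and chosen after seeing the data, quantile normalisation gave 1 member and 168 genes, a pseudocount of 5 gave 1 and 158, no filter on low values gave 6 and 356, and plain eBayes gave 0 and 0. Within library sets, with the block, set 1 gave 0 members and 16 genes and set 2 gave 4 and 109. Without the block, no filter gave 3 genes and 0 members, and edgeR on the 9 libraries with recovered reads gave 0 genes, with 807 at an unadjusted p under 0.05 (800 with DESeq2 size factors).

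Among pairs, leaving out 1 pair gave 16 to 35 members and 2215 to 4142 genes, and plain eBayes gave 4 and 863. For culture day, 0 members were called in any alternative, while genes called were 6 with no filter and 0 to 1 with 1 pair left out. For passage, 0 members were called in any alternative, while genes called were 132 with no filter, 0 with plain eBayes, 0 to 17 with 1 pair left out, 10 in control dishes only and 8 with culture day as a second term. For the different response of the library sets, genes called were 53 with no filter, 0 with plain eBayes and 0 to 7 with 1 pair left out.

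All 40 members were followed under the alternatives listed at the start, and the 6 members described dish by dish also under those chosen after seeing the data. Of these 666 values, 557 kept their direction and side of the threshold, 18 came to pass it and 91 changed sign, none of them called. Outside these values, Mcm10, Orc6 and Pold1 passed with the block and without pair 1, and Orc6 and Pold1 with the block and no filter. With 1 pair left out, the log2 difference ranged for Mcm3 -0.0768 to 0.0774, Rrm2 -0.0772 to 0.026, Fen1 -0.0575 to 0.046, Tyms -0.0517 to 0.0172, Ccne2 -0.12 to 0.00828, Mcm2 -0.0448 to 0.10, Mcm4 -0.0182 to 0.10, Mcm5 -0.00992 to 0.13, Gins3 -0.0142 to 0.13, Cdt1 -0.0629 to 0.13, Rfc4 -0.0206 to 0.0875, Rpa2 -0.0306 to 0.0969, Uhrf1 -0.0268 to 0.0876, Chaf1a -0.00817 to 0.12 and Dtl -0.0509 to 0.11. In library set 1 alone it was Mcm2 -0.10, Mcm4 -0.13, Mcm5 -0.11, Mcm7 -0.0143, Gins3 -0.14, Cdt1 -0.18, Prim1 -0.0533, Rfc2 -0.000479, Rfc4 -0.10, Rfc5 -0.0195, Rpa2 -0.0993, Uhrf1 -0.13, Slbp -0.0904, E2f1 -0.0563, Chaf1a -0.12, Dtl -0.19. In library set 2 alone it was Mcm3 0.15, Rrm2 0.0119, Cdc6 0.0735, Orc1 0.0687, Fen1 0.0857, Tyms 0.0462, Ccne2 0.13. In edgeR on 9 libraries with TMM it was Mcm2 -0.14, Mcm4 -0.082, Mcm5 -0.0983, Mcm7 -0.00467, Rrm1 -0.0334, Gins2 -0.079, Gins3 -0.0663, Cdt1 -0.098, Pola1 -0.047, Prim1 -0.0224, Rfc2 -0.0281, Rfc3 -0.00903, Rfc4 -0.13, Rfc5 -0.0466, Rpa2 -0.10, Uhrf1 -0.15, Slbp -0.0072, Chaf1a -0.0829, Chaf1b -0.0417, Dtl -0.0877. With DESeq2 size factors it was Mcm2 -0.14, Mcm4 -0.0776, Mcm5 -0.0939, Mcm7 -0.000128, Rrm1 -0.029, Gins2 -0.0745, Gins3 -0.062, Cdt1 -0.0938, Pola1 -0.0425, Prim1 -0.0181, Rfc2 -0.0236, Rfc3 -0.00448, Rfc4 -0.12, Rfc5 -0.0419, Rpa2 -0.0968, Uhrf1 -0.15, Slbp -0.00285, Chaf1a -0.0785, Chaf1b -0.0374, Dtl -0.0835. The edgeR fits leave out 3 libraries, 2 of them ablation dishes, and limma on the same 9 libraries, chosen after seeing the data, gave a members' median of -0.0397, with Rrm1 at -0.0297, 0 genes called and 810 at an unadjusted p under 0.05. The cause of the other changes was not tested. Depth was 23631212 to 29775699 recovered reads in 9 libraries, and the least abundant member had 191 normalised counts on average.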
